A study of Mus musculus with 23 samples.

Results

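The genes examined here are 10 markers of interstitial and alternatively activated macrophages: Arg1, Pdcd1lg2, Pf4, Mrc1, Clec10a, Cd163, Folr2, Trem2, Ms4a7 and Gpnmb. They were picked by symbol, and each was found as 1 row among the 35322 genes of the expression table. The 23 libraries are RNA-Seq of lung tissue from 13-week-old BALB/c offspring, labelled female. By the methods it was a piece of the right lower lobe, taken after a lung function test, whereas the labels give the tissue as lung (RML). That test gave rising doses of nebulised methacholine, and the methods describe airway lavage right after it. The dams were given either saline (Sham) or fine particulate matter (PM2.5) into the nose before mating, in pregnancy and until weaning. The 7 Sham and 7 PM libraries came from offspring given saline or PBS (the labels and the methods differ on the vehicle), and the 5 Sham-OVA and 4 PM-OVA libraries from offspring sensitised to ovalbumin (OVA) with alum and then challenged with aerosolised OVA, a model of allergic airway disease (AAD). No group carried a genetic change, and PM2.5 reached the offspring through the mother alone.

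Lung macrophages fall into alveolar macrophages, which live in the airspace and clear surfactant, and interstitial macrophages, which lie in the tissue along vessels, airways and nerves and are replenished in part from blood monocytes. In allergic inflammation IL-4 and IL-13 signal through IL-4Rα and the transcription factor STAT6 and drive macrophages into an alternative state, marked by arginase, lectin and scavenger receptors and the checkpoint ligand PD-L2. Folr2, Ms4a7, Pf4, Mrc1 and Cd163 are known as markers of resident tissue and interstitial macrophages, while Trem2 and Gpnmb mark macrophages that take up lipid and debris. None of the 10 genes is restricted to macrophages: platelets store the product of Pf4, dendritic cells express Clec10a and Pdcd1lg2, lymphatic endothelium expresses Mrc1 and neutrophils can express Arg1.

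Because alternative activation runs through STAT6, the 250 bases before the annotated start of each gene were read from RefSeq promoter windows (GRCm38.p6). Windows were found for 8 of the 10 genes, 10 windows in all because Folr2 and Ms4a7 have a pair each; Arg1 and Clec10a had none. The 3 windows below are shown because they hold either the inverted repeat that STAT6 binds, TTCNNNNGAA, or the longer site GAGGAAGT of PU.1 and other ETS factors, which shape the macrophage lineage. They are written 5′ to 3′ on the strand of the gene, and the capitals mark those matches, on either strand.
Pdcd1lg2: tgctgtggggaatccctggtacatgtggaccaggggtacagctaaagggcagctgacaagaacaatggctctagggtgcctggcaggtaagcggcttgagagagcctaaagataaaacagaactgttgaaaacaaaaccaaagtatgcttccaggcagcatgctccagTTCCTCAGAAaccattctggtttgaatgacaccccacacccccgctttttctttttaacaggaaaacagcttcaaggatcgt
Ms4a7: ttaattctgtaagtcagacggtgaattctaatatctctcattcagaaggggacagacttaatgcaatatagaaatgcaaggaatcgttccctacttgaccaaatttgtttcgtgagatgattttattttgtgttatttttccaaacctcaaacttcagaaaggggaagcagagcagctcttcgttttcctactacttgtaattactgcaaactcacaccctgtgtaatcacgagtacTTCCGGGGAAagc
Pf4: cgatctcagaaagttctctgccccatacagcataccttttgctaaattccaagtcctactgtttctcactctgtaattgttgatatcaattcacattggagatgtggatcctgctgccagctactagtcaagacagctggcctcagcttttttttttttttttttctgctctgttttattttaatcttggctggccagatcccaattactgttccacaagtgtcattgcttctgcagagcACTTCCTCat
The Pdcd1lg2 window lies at chr19:29410669-29410918 on the plus strand, with the match from base -82 to base -73 relative to the start. The Ms4a7 window lies at chr19:11336147-11336396 on the minus strand, with the match from base -13 to base -4, and its other window had no match to either site. The Pf4 window lies at chr5:90772185-90772434 on the plus strand, with its match from base -10 to base -3.

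TTCNNNNGAA stood in 2 of the 10 windows and in 5.85% of the 32851 windows of that length in the genome, and GAGGAAGT in 1 of 10 and in 2.44%. The shorter-spaced repeat of other STAT factors, TTCNNNGAA, was in 0 of the 10 and 7.02% of all windows. The E-box CATGTG occurred in windows of Folr2, Mrc1 and Pdcd1lg2 (12.3% of all windows), and the AP-1 site TGANTCA in windows of Folr2, Ms4a7 and Trem2 (6.75%). All motifs were searched on both strands. A match is a run of letters in a window and not a measured binding site, and the lack of one says only that these letters are not in this window.

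The values are RPM, the reads on a gene divided by all reads of its library, with gene length left out, and the reads behind them were recovered. Between 13089691 and 17393579 reads fell on genes in the saline libraries, but 2298645 to 12185451 in Sham-OVA and 4324326 to 12355561 in PM-OVA, where replicate 3 of Sham-OVA and replicates 3 and 4 of PM-OVA were the shallowest. Sham replicate 1 had 0.289 RPM of Xist and 54.0 RPM of the Y-linked Eif2s3y, against its label of female. Lung markers were high in all groups, with a summed level of the surfactant, club cell and alveolar genes Sftpc, Sftpb, Scgb1a1, Ager and Cldn18 of 23360 to 64010 RPM. Results are given below with and without these 4 libraries where leaving them out changed a call. Leaving them out keeps only replicates 1 and 2 of PM-OVA. The part of this smaller group in the calls lost or gained was not tested. Replicates are separate offspring, but the labels do not give their litters. They are numbered here by the sample titles, and in the OVA groups most numbers differ from those in the library names. The library name of PM-OVA replicate 4 is of another form than the rest.

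OVA challenge was accompanied by higher levels of the whole group. In Sham offspring 10 of the 10 genes rose, at an adjusted p under 0.05 in limma with Benjamini-Hochberg (BH) adjustment over all 16795 genes tested, where 20.6% of all genes rose. In PM offspring 9 of the 10 rose, where 20.1% of all genes rose, and Cd163 did not pass. Far more genes fell across the lung, 47.5% in Sham and 45.2% in PM offspring, but this balance depended on the scaling. Of all genes that passed, 30.2% were higher in Sham and 30.8% in PM offspring, against 43.4% and 44.8% under median-of-ratios scaling and 49.6% and 50.1% with edgeR. The median log2 fold change of the 10 genes was 2.51 in Sham and 1.87 in PM offspring, against medians over all genes tested of -0.48 and -0.43. Every Sham-OVA library lay above every Sham library in 8 of the 10 genes (13.2% of all genes), and every PM-OVA library above every PM library in 8 of the 10 (13.3% of all genes). Fold changes are on the log2(RPM + 0.5) scale, which understates the change of low genes. In lung tissue, more cells of a type cannot be told apart from more RNA per cell. Every OVA library also had fewer reads on genes than every saline library, at most 12355561 against at least 13089691. Depth therefore cannot be told apart from OVA in these comparisons, and its part was not tested. With the trend with transcript length removed, the medians over all genes were -0.036 and -0.013, and those of the 10 genes 2.70 and 2.36.

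**Figure D1:**
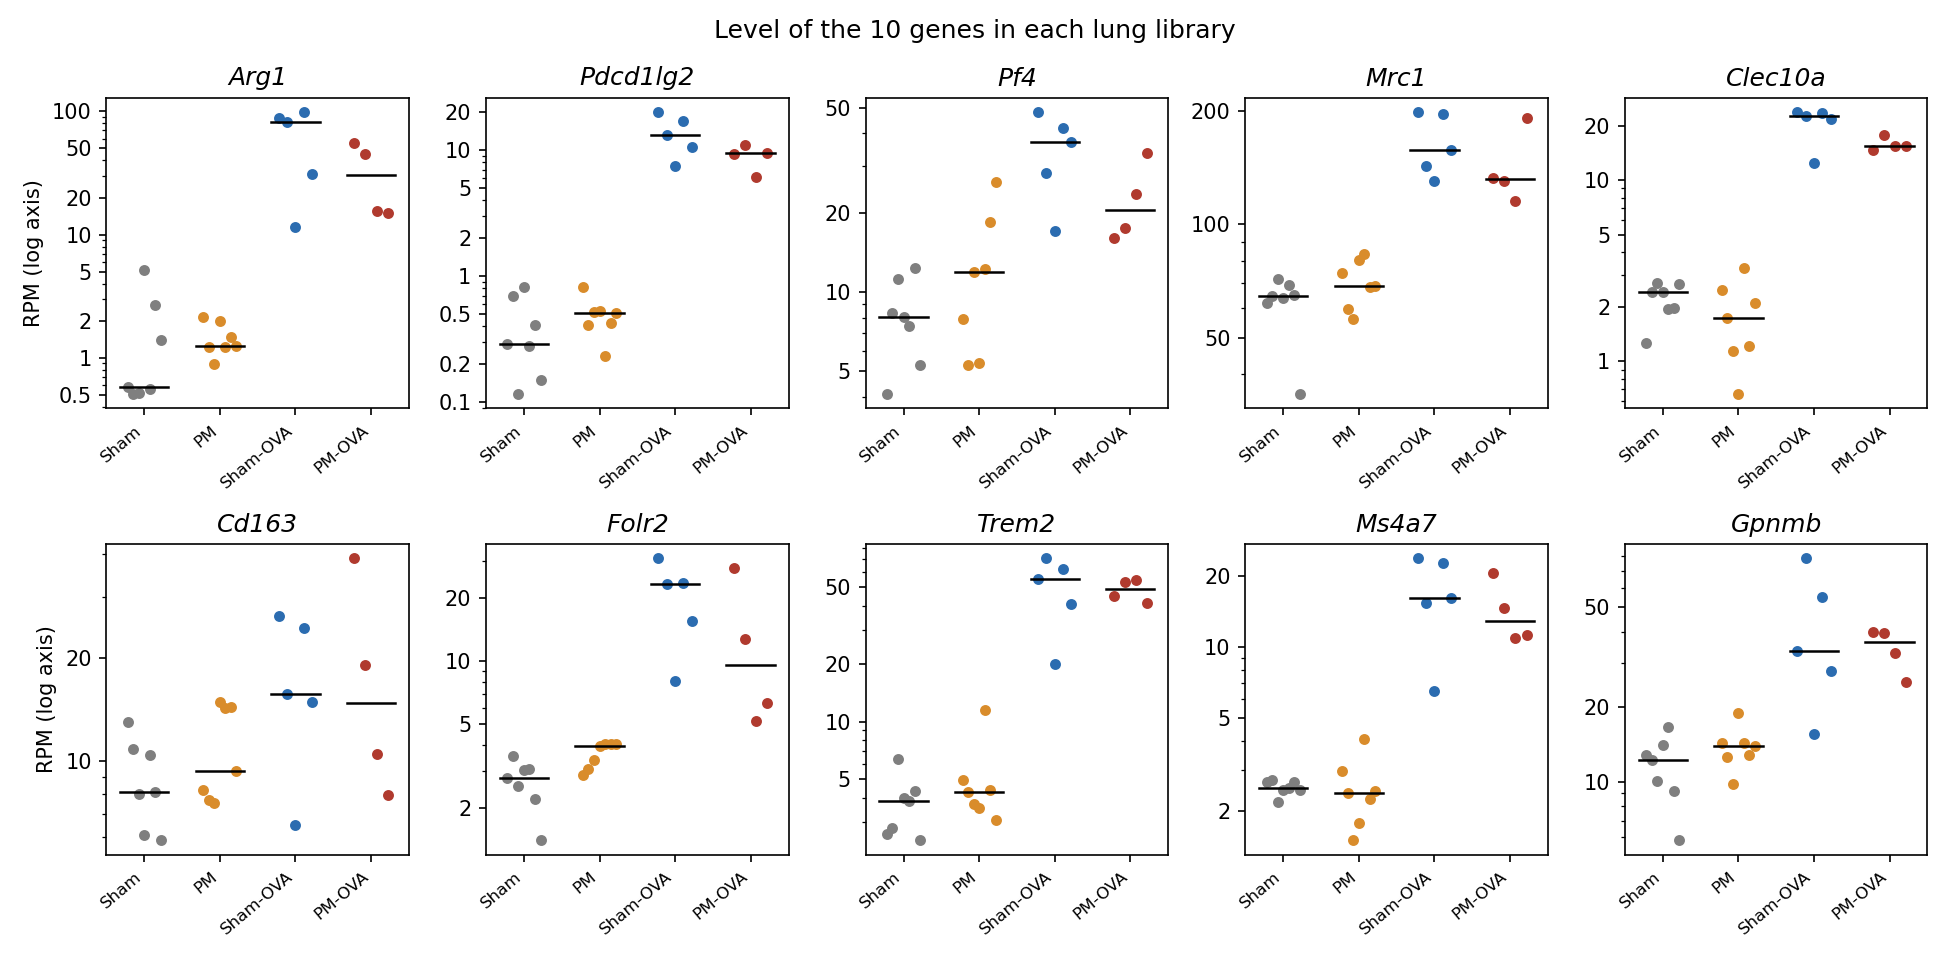
Level of each of the 10 genes in the 23 libraries, in RPM on a log axis. Each point is 1 library, the groups are Sham (n = 7), PM (n = 7), Sham-OVA (n = 5) and PM-OVA (n = 4), and the black line is the median of the group. The OVA points lie above the saline points in both cohorts for Arg1, Pdcd1lg2, Mrc1, Clec10a, Folr2, Trem2 and Ms4a7, and overlap them in at least 1 cohort for Pf4, Cd163 and Gpnmb.

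Arg1 (ENSMUSG00000019987.9, chr10:24915221-24927484, minus strand) encodes arginase 1, which converts arginine to ornithine and urea and is the classical enzyme of alternative activation. It rose the most of the group. Its level was 0.507 to 5.14 RPM in Sham (median 0.577) and 0.883 to 2.13 RPM in PM (median 1.25). In Sham-OVA replicates 1 to 5 it was 88.9, 82.4, 11.5, 98.7 and 31.3 RPM. In PM-OVA replicates 1 to 4 it was 55.4, 45.3, 15.7 and 15.1 RPM. All 9 OVA libraries lay above all 14 saline libraries, the lowest of them being the shallow Sham-OVA replicate 3, and the saline values rested on as few as 8 reads. The log2 fold change was 4.85 (SE 0.56, adjusted p = 3.94e-06) in Sham and 3.89 (SE 0.36, adjusted p = 8.53e-06) in PM offspring with limma. Counted from the largest rise, Arg1 stood at rank 26 and rank 42 of the 16795 genes tested.

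Nos2, the inducible nitric oxide synthase that competes with arginase for arginine, rose less, by 1.11 (SE 0.22, adjusted p = 0.000409) and 0.69 (SE 0.22, adjusted p = 0.0131) on the same scale. Counted in reads within each library, the log2 ratio of Arg1 to Nos2 went from -2.22 ± 1.29 (SD, n = 7) in Sham to 2.04 ± 1.09 (n = 5) in Sham-OVA. In PM it was -2.13 ± 0.48 (n = 7), and in PM-OVA 1.42 ± 1.40 (n = 4). Arg1 therefore had fewer reads than Nos2 in all saline libraries but 1, and more in all 9 OVA libraries. Without the 4 libraries named above the call of Nos2 in PM offspring was lost (0.35, adjusted p = 0.18). Of 11 tested genes that transport, make or use arginine or act on ornithine and polyamines, 3 rose in each cohort, namely Nos2, the transporter Slc7a2 and the argininosuccinate lyase Asl, which was the highest (1.46 and 1.16). In Sham offspring 5 fell, all of them ornithine and polyamine genes (Odc1, Azin1, Oat, Srm and Sms), and in PM offspring 4 fell (Odc1, Azin1, Oat and the transporter Slc7a1). The ornithine aminotransferase Oat was the lowest (-1.20 and -1.34). Odc1 and Srm were scarce, with 0 to 7 and 2 to 22 reads in the Sham-OVA libraries. Markers of neutrophils were mixed: of 7 tested, 1 rose (Retnlg, 4.22 and 3.38) and 2 fell in Sham offspring, and 1 rose and 3 fell in PM offspring. Their summed level was 71.2 to 731 RPM in Sham and 143 to 758 RPM in Sham-OVA, and their part in the level of Arg1 was not tested.

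Pdcd1lg2 (ENSMUSG00000016498.10, chr19:29410919-29471161, plus strand) encodes PD-L2, a ligand of the inhibitory T cell receptor PD-1 that IL-4 induces on macrophages and dendritic cells. It was close to the limit of detection without OVA, at 0.116 to 0.824 RPM in Sham (median 0.289) and 0.235 to 0.825 RPM in PM (median 0.512), from 2 to 13 reads. The Sham-OVA libraries held 20.1, 13.3, 7.46, 17.1 and 10.6 RPM. Those of PM-OVA held 9.41, 11.1, 6.11 and 9.44 RPM. The OVA libraries did not overlap the saline libraries, and 4 of the 5 Sham-OVA libraries lay above 3 of the 4 PM-OVA libraries. The log2 fold change was 3.97 (SE 0.27, adjusted p = 4.08e-08) in Sham and 3.25 (SE 0.21, adjusted p = 6.64e-07) in PM offspring with limma. The strict threshold of the study, an adjusted p under 0.000001 and a log2 fold change above 1, was passed with limma by 3 of the 10 in Sham (Pdcd1lg2, Clec10a and Trem2; 1.98% of all genes) and by Pdcd1lg2 in PM offspring (0.262% of all genes). How many passed it depended on the test. With DESeq2, the tool of the study, on the recovered reads 9 of the 10 passed in Sham (all but Cd163; 14% of all genes) and 8 in PM offspring (all but Cd163 and Pf4; 10.5% of all genes). With edgeR 8 passed in Sham (5.6% of all genes) and 2, Arg1 and Pdcd1lg2, in PM offspring (0.25% of all genes). In limma Pdcd1lg2 fell short of it in PM offspring when any 1 PM library was left out, or any 1 of PM-OVA replicates 2 to 4. In Sham offspring the limma count was 8 without Sham-OVA replicate 3 and stayed at 3 without Sham replicate 3. Without any other single library it was 2, with Trem2 lost.

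The receptor Pdcd1 also rose, by 3.24 (SE 0.28, adjusted p = 3.35e-07) and 2.95 (SE 0.24, adjusted p = 3.74e-06). The other ligand of PD-1, Cd274 (PD-L1), had log2 fold changes of -0.31 (adjusted p = 0.351) and -0.79 (adjusted p = 0.0655) with limma and did not pass, and its sign turned under median-of-ratios scaling and quantile normalisation in Sham offspring. In PM offspring it passed as lower in 5 alternatives, among them array weights (-1.40, adjusted p = 0.000153) and leaving out PM replicate 5 (-0.91, adjusted p = 0.0435) or PM-OVA replicate 1 (-1.19, adjusted p = 0.00239), and without the 4 libraries named above it was at 0.03. The log2 ratio of Pdcd1lg2 to Cd274 reads went from -6.07 ± 0.75 (SD, n = 7) in Sham to -0.55 ± 0.31 (n = 5) in Sham-OVA. It averaged -5.78 ± 0.31 (n = 7) in PM and -0.81 ± 0.97 (n = 4) in PM-OVA. The highest saline ratio was -5.08 and the lowest OVA ratio -1.95, so the groups did not overlap. Of the 4 other genes of this axis, 2 rose and 1 fell in each cohort. Among 8 markers of dendritic cells, 2 rose and 2 fell in Sham and 2 rose and 0 fell in PM offspring, led by the growth factor receptor Flt3 (1.84 and 1.93). Their summed level was 92.2 to 155 RPM in Sham and 96.3 to 147 RPM in Sham-OVA, and their part in the levels of Pdcd1lg2 and Clec10a was not tested.

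Pf4 (ENSMUSG00000029373.7, chr5:90772435-90773383, plus strand) encodes the chemokine CXCL4, which platelets release and tissue macrophages transcribe. Sham libraries held 4.10 to 12.4 RPM (median 8.05) and PM libraries 5.27 to 26.2 RPM (median 11.9). In Sham-OVA the level was 48.1, 28.3, 17.1, 41.7 and 37.1 RPM, all above Sham. In PM-OVA it was 16.1, 17.5, 23.5 and 33.6 RPM, and 3 of these 4 values lay below the highest PM library. OVA raised it by a log2 fold change of 2.02 (SE 0.29, adjusted p = 3.08e-05) in Sham and 0.98 (SE 0.40, adjusted p = 0.0464) in PM offspring with limma. The call in PM offspring was lost in 13 of the alternatives. Among them were leaving out any 1 of PM replicates 1 to 5 or of PM-OVA replicates 2 to 4 (adjusted p = 0.0544 to 0.141) and leaving out the 4 libraries named above (0.62, adjusted p = 0.32).

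Pf4 and Ppbp, which encodes another chemokine stored in platelets, parted after OVA. Ppbp fell by 2.02 (SE 0.49, adjusted p = 0.00228) in Sham and by 1.92 (SE 0.51, adjusted p = 0.00538) in PM offspring on the log2 scale, where the call was lost without the 4 libraries (-1.35, adjusted p = 0.0896). The log2 ratio of Pf4 to Ppbp reads rose from -0.27 ± 0.42 (SD, n = 7) in Sham to 4.25 ± 1.43 (n = 5) in Sham-OVA, and was 0.02 ± 0.45 (n = 7) in PM against 3.15 ± 1.30 (n = 4) in PM-OVA, without overlap. The highest ratio, 6.79, belongs to Sham-OVA replicate 3, where Ppbp had 0 reads. Of 8 markers of platelets and megakaryocytes, 2 rose and 4 fell in Sham and 1 rose and 3 fell in PM offspring, with Gp1bb the highest (1.25 and 1.12) and Ppbp the lowest. Their summed level was 25.5 to 62.6 RPM in Sham, 32.9 to 50.5 RPM in Sham-OVA, 21.3 to 107 RPM in PM and 34.0 to 52.0 RPM in PM-OVA.

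**Figure D2:**
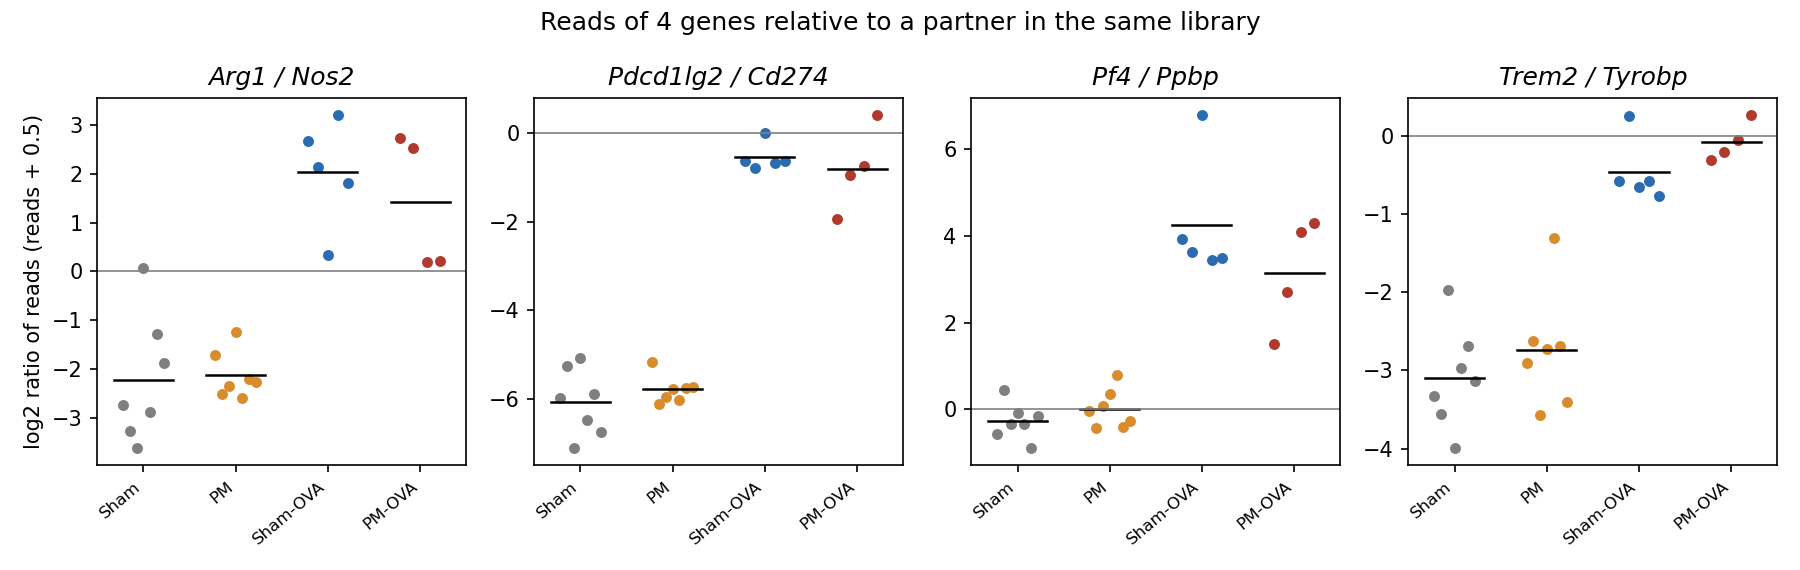
Log2 ratio of the reads of 4 genes to those of a partner gene in the same library, with 0.5 added to each count. Points are libraries, black lines are group means and the grey line is an equal number of reads. The OVA libraries lie above the saline libraries in all 4 panels, with the mean of Pdcd1lg2 to Cd274 at -6.07 in Sham and -0.55 in Sham-OVA.

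Mrc1 (ENSMUSG00000026712.3, chr2:14229392-14332057, plus strand) encodes the mannose receptor CD206, an endocytic lectin that alveolar and interstitial macrophages both carry. It was the most abundant of the group in RPM, at 35.4 to 71.8 in Sham (median 64.5) and 55.9 to 83.5 in PM (median 68.5). The Sham-OVA libraries held 198, 142, 130, 196 and 157 RPM. Those of PM-OVA held 133, 130, 115 and 192 RPM. The groups did not overlap, and the rise was 1.42 (SE 0.18, adjusted p = 9.43e-06) in Sham and 1.01 (SE 0.16, adjusted p = 0.000273) in PM offspring with limma, smaller than for most of the others. Markers of lymphatic endothelium had a lower summed level after OVA, 446 to 973 RPM in Sham against 197 to 400 RPM in Sham-OVA and 468 to 726 RPM in PM against 274 to 446 RPM in PM-OVA. Lyve1, which interstitial macrophages express too, carried this. Without it the sum was 203 to 297 RPM in Sham, 182 to 303 RPM in Sham-OVA, 207 to 297 RPM in PM and 237 to 271 RPM in PM-OVA, so that the groups overlapped. Of 5 tested, 1 rose (Reln) and 3 fell (Lyve1, Prox1 and Flt4) in Sham, and 1 rose and 2 fell (Lyve1 and Prox1) in PM offspring.

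Clec10a (ENSMUSG00000000318.16, chr11:70156197-70170834, plus strand) encodes a C-type lectin for galactose and N-acetylgalactosamine found on alternatively activated macrophages and dendritic cells. It measured 1.27 to 2.72 RPM in Sham (median 2.41) and 0.658 to 3.29 RPM in PM (median 1.74). In Sham-OVA it measured 23.8, 22.5, 12.4, 23.6 and 21.8 RPM. In PM-OVA it measured 14.7, 17.7, 15.5 and 15.4 RPM. These are the tightest OVA values of the group apart from the shallow Sham-OVA replicate 3, and no OVA library overlapped a saline library. Its log2 fold change was 2.97 (SE 0.22, adjusted p = 7.42e-08) in Sham and 2.92 (SE 0.29, adjusted p = 1.52e-05) in PM offspring with limma.

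Cd163 (ENSMUSG00000008845.9, chr6:124304656-124330527, plus strand) encodes the scavenger receptor for haptoglobin-haemoglobin complexes. It had the smallest fold change of the group in both cohorts. Sham libraries held 5.87 to 13.0 RPM (median 8.14) and PM libraries 7.53 to 14.8 RPM (median 9.39). The Sham-OVA values were 26.5, 15.7, 6.52, 24.5 and 14.8 RPM. The PM-OVA values were 39.0, 19.1, 10.5 and 7.99 RPM. Both OVA groups overlapped their saline group, and PM-OVA replicate 1 stood highest of all 23 libraries. The log2 fold change was 0.85 (SE 0.31, adjusted p = 0.0244) in Sham and 0.58 (SE 0.37, adjusted p = 0.187) in PM offspring with limma. The Sham call was lost without Sham replicate 7 (adjusted p = 0.0501), Sham-OVA replicate 1 (0.0728) or Sham-OVA replicate 4 (0.0729), and under the replicate block (0.0724). In PM offspring Cd163 passed in 8 alternatives, with values of 0.75 to 1.34, namely median-of-ratios scaling (0.92, adjusted p = 0.0192), quantile normalisation, centring on macrophage genes, removal of the length trend, DESeq2 (1.08, adjusted p = 0.00284), edgeR, leaving out PM-OVA replicate 4 (0.89, adjusted p = 0.0486) and leaving out the 4 libraries named above (1.34, adjusted p = 0.00547). Without PM-OVA replicate 1, the library with the most Cd163, it was at 0.15 (adjusted p = 0.655), and with array weights at 0.14 (adjusted p = 0.748).

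Genes that clear haemoglobin were mixed. Haptoglobin (Hp) fell by 1.73 (SE 0.28, adjusted p = 8.18e-05) in Sham and by 1.30 (SE 0.29, adjusted p = 0.00186) in PM offspring. Haem oxygenase 1 (Hmox1) rose in Sham offspring (0.98, SE 0.27, adjusted p = 0.00478) and measured 0.37 (adjusted p = 0.166) in PM offspring, where it passed in 7 alternatives, among them leaving out PM replicate 5 (0.49), PM-OVA replicate 3 (0.57) or the 4 libraries (0.70). Of 7 genes around this pathway, 1 rose and 4 fell in Sham and 1 rose and 3 fell in PM offspring, the lowest being the ferritin heavy chain Fth1 (-1.85 and -2.15, and in PM offspring -0.42, adjusted p = 0.0812, without the 4 libraries).

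Folr2 (ENSMUSG00000032725.10, chr7:101839988-101857194, minus strand) encodes folate receptor beta, a surface receptor of resident macrophages. Sham libraries held 1.41 to 3.55 RPM (median 2.77) and PM libraries 2.89 to 4.05 RPM (median 3.95). In Sham-OVA it stood at 30.8, 23.2, 8.08, 23.6 and 15.5 RPM. In PM-OVA it stood at 27.6, 12.8, 5.18 and 6.36 RPM. No OVA library overlapped a saline library, and PM-OVA replicates 3 and 4 lay nearest to PM. It rose by 2.62 (SE 0.30, adjusted p = 3.2e-06) in Sham and 1.42 (SE 0.36, adjusted p = 0.00392) in PM offspring on the log2 scale with limma. Without the 4 libraries named above these became 2.92 and 2.23. Of 4 other genes of folate uptake and use 3 rose and 0 fell in Sham and 2 rose and 0 fell in PM offspring, with Folr1, folate receptor alpha of epithelium, at 1.10 and 1.23.

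Trem2 (ENSMUSG00000023992.14, chr17:48346401-48354147, plus strand) encodes a receptor for lipids and lipoproteins that signals through the adaptor Tyrobp (DAP12). Sham libraries held 2.41 to 6.37 RPM (median 3.85) and PM libraries 3.07 to 11.5 RPM (median 4.30). In Sham-OVA the level was 55.4, 70.5, 19.9, 61.9 and 40.7 RPM. In PM-OVA it was 44.7, 53.2, 54.3 and 41.2 RPM, with little spread. OVA and saline libraries were well apart, and the log2 fold change was 3.49 (SE 0.30, adjusted p = 3.2e-07) in Sham and 3.24 (SE 0.28, adjusted p = 5.81e-06) in PM offspring with limma. Tyrobp rose by less, 1.03 (SE 0.28, adjusted p = 0.00502) and 0.69 (SE 0.20, adjusted p = 0.00915), so that the log2 ratio of Trem2 to Tyrobp reads went from -3.09 ± 0.65 (SD, n = 7) in Sham to -0.47 ± 0.41 (n = 5) in Sham-OVA. Of 13 partners of Trem2 and genes of lipid-handling macrophages, 9 rose and 1 fell in Sham and 9 rose and 2 fell in PM offspring, with the integrin Itgax (CD11c) highest (2.99 and 2.67) and the tetraspanin Cd9 lowest (-1.70 and -1.72). Without the 4 libraries Cd9 was at -0.30 (adjusted p = 0.0637) in PM offspring.

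Ms4a7 (ENSMUSG00000024672.11, chr19:11321039-11336146, minus strand) encodes a membrane-spanning 4-domain protein found on monocyte-derived and interstitial macrophages. Sham libraries held a narrow range of 2.20 to 2.72 RPM (median 2.51) and PM libraries 1.51 to 4.05 RPM (median 2.40). In Sham-OVA the level was 23.8, 15.3, 6.52, 22.8 and 16.1 RPM. In PM-OVA it was 20.6, 14.6, 10.9 and 11.3 RPM. The groups were apart, with a log2 fold change of 2.40 (SE 0.27, adjusted p = 2.68e-06) in Sham and 2.31 (SE 0.25, adjusted p = 3.03e-05) in PM offspring with limma. The rest of its family was mixed: of 9 other Ms4a genes tested, 1 rose (Ms4a8a, 2.17 and 2.05) and 2 fell in Sham and 1 rose and 3 fell in PM offspring, down to Ms4a6b at -1.56 and -1.74.

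Gpnmb (ENSMUSG00000029816.10, chr6:49036546-49070929, plus strand) encodes a glycoprotein of lysosomes and the cell surface that rises in phagocytes loaded with lipid. Sham libraries held 5.82 to 16.6 RPM (median 12.2) and PM libraries 9.81 to 18.8 RPM (median 13.9). In Sham-OVA the level was 33.5, 78.6, 15.5, 54.8 and 27.7 RPM, so that replicate 3 lay below the highest Sham library. In PM-OVA it was 39.9, 39.6, 32.8 and 25.1 RPM, all above PM. Its log2 fold change was 1.67 (SE 0.34, adjusted p = 0.000603) in Sham and 1.28 (SE 0.19, adjusted p = 0.00017) in PM offspring with limma.

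**Figure D3:**
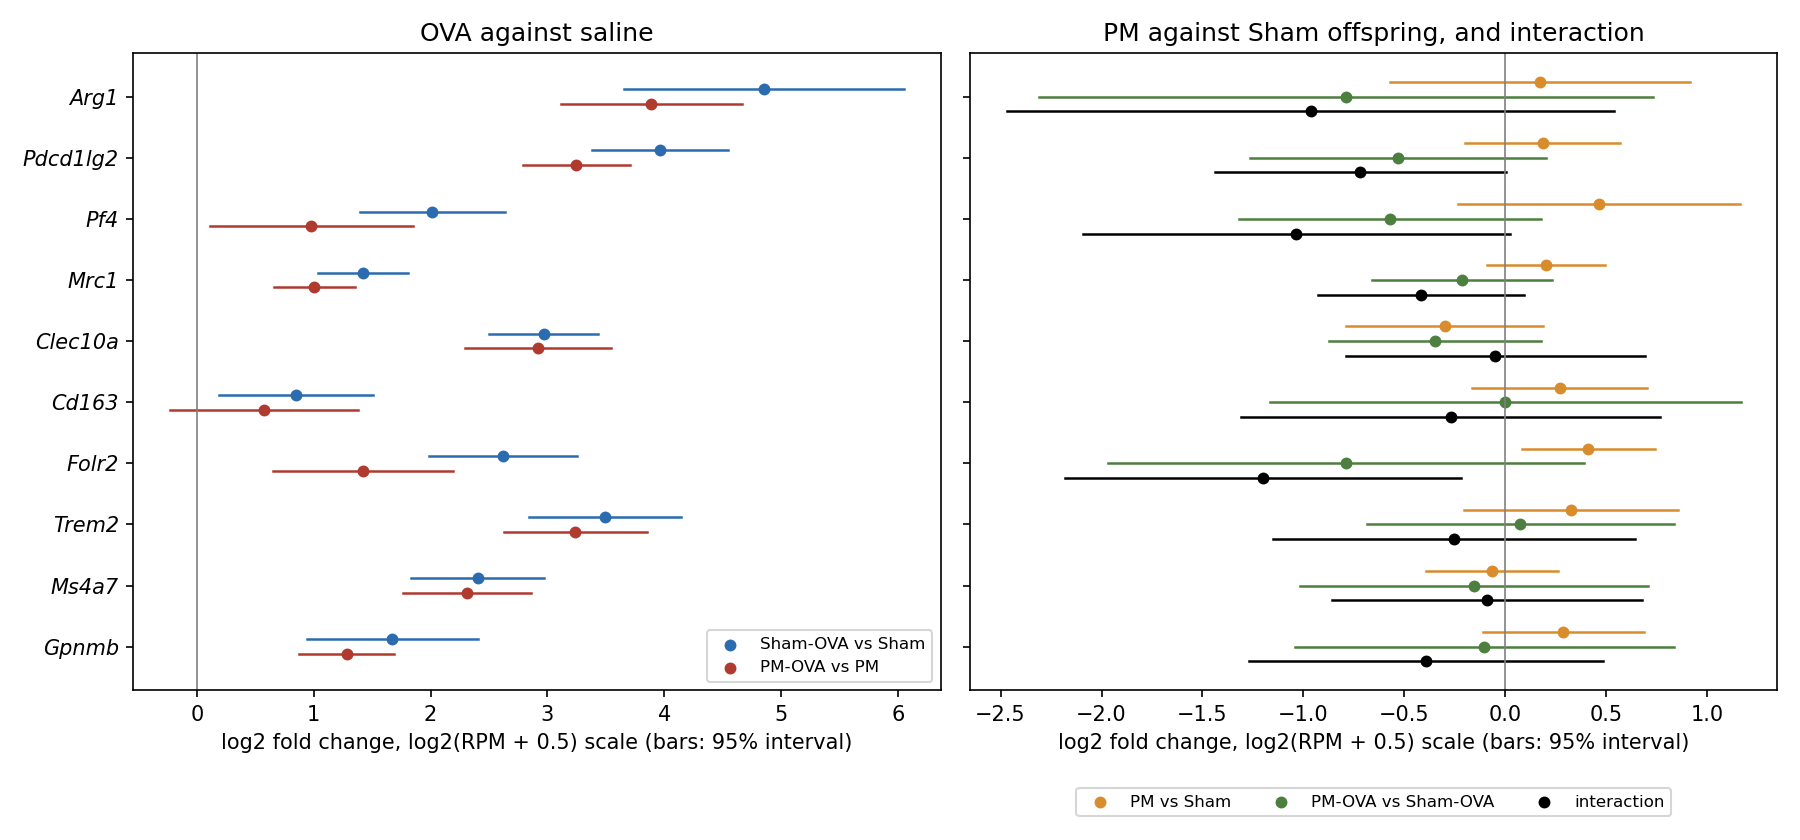
Log2 fold change of each gene on the log2(RPM + 0.5) scale, with its 95% interval from limma. The left panel shows OVA against saline in Sham and in PM offspring, and the right panel PM against Sham without OVA, PM-OVA against Sham-OVA, and the interaction. Changes run from 0.58 to 4.85 on the left, and on the right 0 of the 10 genes passed in any of the 3 comparisons.

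Developmental PM2.5 was compared without and with OVA, to ask whether maternal exposure altered these genes in the adult offspring. In PM against Sham 0 of the 10 genes differed (limma, 0% of all genes), and log2 fold changes ran from -0.30 in Clec10a to 0.46 in Pf4. At an unadjusted p under 0.05 there was 1 gene, Folr2, at 0.41 (SE 0.15, adjusted p = 0.898 in limma), where 4.35% of all genes were that low. The widest 95% interval in this comparison was that of Arg1, from -0.57 to 0.92 on the log2 scale, and the narrowest that of Mrc1, from -0.09 to 0.49.

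In PM-OVA against Sham-OVA 0 of the 10 differed (limma, 0% of all genes), and 0 had an unadjusted p under 0.05 (1.86% of all genes). The log2 fold changes were lowest in Arg1 (-0.79, interval -2.31 to 0.73) and Folr2 (-0.79, interval -1.97 to 0.39), followed by Pf4 (-0.57, interval -1.32 to 0.18) and Pdcd1lg2 (-0.53, interval -1.27 to 0.20). Trem2 was at 0.07 (interval -0.69 to 0.84) and Cd163 at 0.00 (interval -1.17 to 1.17). These 2 largest differences moved as single libraries were left out, Arg1 from -1.30 (without Sham-OVA replicate 3) to -0.50 (without PM-OVA replicate 4) and Folr2 from -1.24 (without PM-OVA replicate 1) to -0.47 (without PM-OVA replicate 3). Without the 4 libraries they were -0.46 and -0.26, and without Sham-OVA replicate 3 alone all 10 values were below 0, with a median of -0.49 against -0.28 with it. The intervals above include no difference, and for 7 of the 10 genes also a difference of more than 1 on the log2 scale.

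The interaction asks whether the change with OVA differed between PM and Sham offspring. In the fit of all 4 groups 0 of the 10 genes passed (limma, 0% of all genes). Its estimates were below 0 for all 10 genes, from -1.20 in Folr2 to -0.05 in Clec10a, with a median of -0.40 against -0.01 over all genes tested. Some lists of other genes had medians of similar size, -0.43 for neutrophil markers, -0.41 for classical activation, -0.33 for other interstitial markers and -0.32 for eosinophil markers. Other lists lay closer to 0 or above it. Among them were monocyte (-0.11), alveolar macrophage (-0.03), dendritic cell (0.08) and lymphatic endothelium markers (0.30). When centred on macrophage genes the median of the 10 was -0.19 and 2 were above 0, with all genes tested then at 0.20. Folr2 alone had an unadjusted p under 0.05 (SE 0.48, adjusted p = 0.79 in limma), where 5.08% of all genes did. The next were Pf4 (-1.04, adjusted p = 1.0 in limma) and Pdcd1lg2 (-0.72, adjusted p = 0.986). Without the 4 libraries named above the estimate of Folr2 was -0.69 (adjusted p = 0.264) and that of Pf4 -1.49 (adjusted p = 0.111), and 0 of the 10 passed where 3.04% of all genes did.

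The shallowest OVA libraries held many of the low values of their groups, though not all. Sham-OVA replicate 3, with the fewest reads of all libraries, had the lowest value of its group in 10 of the 10 genes, and PM-OVA replicates 3 and 4 had the lowest in 4 genes each. PM-OVA replicates 3 and 4 also had the highest value of their group in 1 and 2 genes, Pf4 among them. The mean log2(RPM + 0.5) over the 10 genes was 3.85 in Sham-OVA replicate 3 and 4.77 to 5.39 in the other 4, and 4.25 and 4.34 in PM-OVA replicates 3 and 4 and 4.74 and 4.95 in the other 2. Sham-OVA replicate 5, with 11224260 reads the second deepest of its group, had the second lowest mean there, 4.77. All of these lay above the saline libraries, which spanned 1.90 to 2.81. The part of depth in the spread among OVA libraries was not tested. Leaving out the 4 libraries kept only replicates 1 and 2 of PM-OVA. It gave 10 genes higher in Sham offspring (median 2.82) and 9 in PM offspring (median 2.43). In PM offspring Cd163 then gained a call and Pf4 lost its own.

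**Figure D4:**
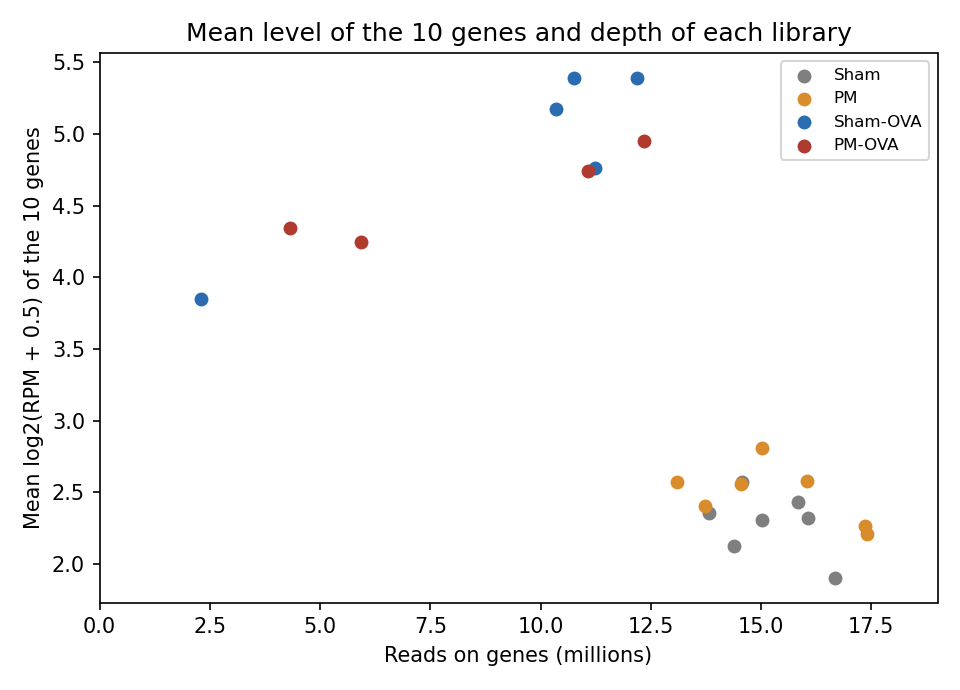
Mean log2(RPM + 0.5) of the 10 genes in each library against the number of reads on genes. Each point is 1 library, coloured by group. The 14 saline libraries lie between 1.90 and 2.81, and the 9 OVA libraries between 3.85 and 5.39, the shallowest of them lowest.

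Among the saline libraries, Sham replicate 7 had the lowest value of its group in 5 of the 10 genes, PM replicate 3 the lowest in 5 and PM replicate 5 the highest in 5.

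Scaled to exonic length, with all annotated exons of a gene merged, the order of the 10 genes changed with OVA. The place of a gene among the others rests on this choice of length, and no other was tried. In Sham, Pf4 (11.2 ± 4.11 RPM per kilobase, SD, n = 7) and Mrc1 (9.67 ± 1.89) led, and all libraries of Mrc1 lay above all those of the next gene, Gpnmb (1.77 ± 0.54). From Gpnmb down through Folr2, Cd163, Trem2, Clec10a, Arg1 and Ms4a7, neighbours overlapped, and Pdcd1lg2 was last at 0.201 ± 0.138, apart from Ms4a7. In PM the order began in the same way, with Pf4 (17.3 ± 10.5, n = 7) and Mrc1 (11.0 ± 1.59), and ended with Pdcd1lg2 (0.252 ± 0.0909), here overlapping its neighbour.

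In Sham-OVA the per-length order was Pf4 (47.8 ± 16.8, n = 5), Arg1 (28.1 ± 17.3), Mrc1 (25.9 ± 4.87), Folr2, Trem2, Clec10a, Pdcd1lg2, Gpnmb, Ms4a7 and Cd163 (3.23 ± 1.5). All libraries of Mrc1 lay above all those of Folr2 (13.1 ± 5.62), whereas Arg1, at 5.16 to 44.3, overlapped Pf4, Mrc1 and Folr2. Arg1 thus stood at place 8 in Sham and place 2 in Sham-OVA. In PM-OVA the order was Pf4 (31.4 ± 11.1, n = 4), Mrc1 (22.4 ± 5.31), Arg1 (14.7 ± 9.24), Trem2, Folr2, Clec10a, Gpnmb, Pdcd1lg2, Cd163 and Ms4a7 (3.22 ± 1.01), and every gene overlapped the next.

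Genes that mark macrophages as a whole had median log2 fold changes of 0.28 in Sham and 0.09 in PM offspring, beside 2.51 and 1.87 for the 10 genes. Csf1r, the receptor of the growth factor that macrophages need, had log2 fold changes of 0.28 (adjusted p = 0.354) and 0.09 (adjusted p = 0.747) with limma. It passed as higher in 8 alternatives in Sham and 5 in PM offspring, among them median-of-ratios scaling (0.64 and 0.46), DESeq2 (0.72 and 0.54) and leaving out the 4 libraries (0.57 and 0.70), and in Sham offspring without Sham-OVA replicate 3 alone (0.61). Adgre1 (F4/80) rose in Sham offspring (1.00, SE 0.34, adjusted p = 0.0165) and measured 0.54 (adjusted p = 0.057) in PM offspring, where it passed in 9 alternatives, among them leaving out PM-OVA replicate 3 (0.67), PM-OVA replicate 4 (0.73) or the 4 libraries (1.01). Of 5 such genes 2 rose and 1 fell in Sham and 1 rose and 2 fell in PM offspring, with the lysosomal Cd68 highest (1.61 and 1.36) and the efferocytosis receptor Mertk lowest (-2.11 and -2.23). With the 10 genes scaled to these 5 in each library, their median rise was 2.47 in Sham and 2.04 in PM offspring.

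Other interstitial macrophage markers rose in part. Of 11, 6 rose and 1 fell in each cohort, beside 20.6% and 20.1% of all genes that rose. The complement gene C1qa was highest (3.91, SE 0.19, adjusted p = 1.66e-09 in Sham and 3.36, SE 0.25, adjusted p = 1.55e-06 in PM offspring), and Lyve1, which marks the perivascular subset and lymphatic endothelium, fell (-2.79 and -2.44). Of 9 alveolar macrophage markers tested, 2 rose and 5 fell in each cohort. The highest log2 fold change among them was that of Car4, 1.00 and 1.18. Marco, a scavenger receptor of these cells, fell by 1.99 (SE 0.37, adjusted p = 0.000242) and 2.01 (SE 0.31, adjusted p = 0.000226). It was scarce, with 0 to 7 reads in the Sham-OVA and 0 to 9 in the PM-OVA libraries.

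Other genes of the IL-4 and IL-13 programme, with the cytokines, receptor chains and transcription factors, rose in 9 and fell in 2 of 16 in each cohort. The eotaxin Ccl24 was highest, at 5.73 (SE 0.25, adjusted p = 7.7e-10) and 4.70 (SE 0.33, adjusted p = 1.01e-06). The lowest was Flt1 in Sham (-1.20) and the receptor chain Il13ra1 in PM offspring (-1.07). Genes of classical activation rose in 4 and fell in 0 of 9 in each cohort. The cytokines themselves were scarce: Il4 had 0 to 20 reads and Il13 had 0 to 61 reads in the Sham-OVA libraries. Of 9 growth factors, receptor chains and chemokines that act on macrophages, 5 rose in Sham offspring (Csf2, Il34, Ccl2, Ccl7 and Ccl12) and 4 in PM offspring (Il34, Ccl2, Ccl7 and Ccl12), with the monocyte attractant Ccl7 at 3.63 and 2.43. The chemokine Cx3cl1 and the receptor chain Csf2ra (-1.86) fell in Sham offspring, and 0 fell in PM offspring.

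Markers of other infiltrating cells differed between lists. Of 8 monocyte markers 2 rose and 3 fell in each cohort. Of 5 eosinophil markers tested 4 rose and 1 fell in each, led by Prg2 (3.94 and 3.68). The 1 that fell was Siglecf (-1.01 and -1.33), which is also counted among the alveolar macrophage markers above. Of 5 markers of lung epithelium 2 rose and 1 fell in Sham and 1 rose and 1 fell in PM offspring. Under median-of-ratios scaling the median of all genes moved from -0.48 to -0.17 in Sham and from -0.43 to -0.12 in PM offspring, and then 10 and 8 of the 11 interstitial markers rose, 5 and 5 of the 9 alveolar markers fell and 2 and 2 of the 8 monocyte markers fell, while the direction of the 10 genes did not turn under any scaling tried in these 2 comparisons.

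**Figure D5:**
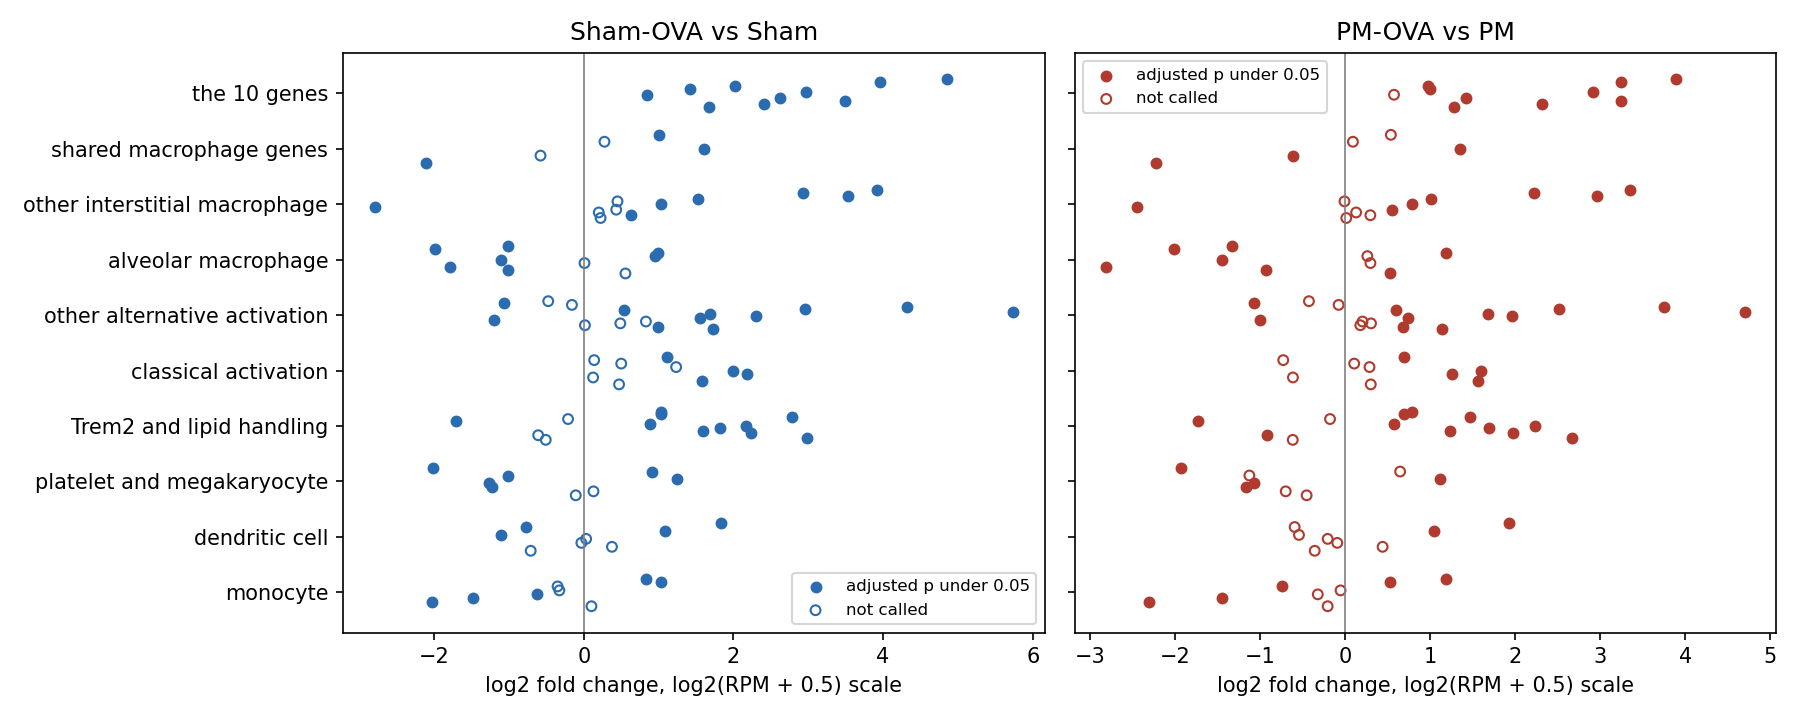
Log2 fold change, on the log2(RPM + 0.5) scale, of the 10 genes and of 9 gene lists after OVA challenge in Sham (left) and PM (right) offspring. Each point is 1 gene, filled where the adjusted p was under 0.05 in limma. The 10 genes lie to the right of 0 in both panels. In the left panel all lists but classical activation have filled points on both sides. In the right panel all but classical activation and dendritic cell do.

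The gene outside the group whose log2 values were most like each of 9 of the 10 over all 23 libraries was sought by Pearson's r. These r mostly carry the gap between OVA and saline libraries, which every pair shares, and the libraries also share their depth. Ms4a7 was most like Fcgr2b (r = 0.985), the inhibitory IgG receptor. Pdcd1lg2 was most like the chemokine Ccl9 (r = 0.984), Clec10a like Eaf2 (r = 0.981), and Trem2 like Itgax (r = 0.980). Arg1 was most like Cd74 (r = 0.969), the invariant chain of MHC class II, and Folr2 like the endoplasmic reticulum chaperone Pdia4 (r = 0.961). Gpnmb was most like the lysosomal Cd68 (r = 0.950). The likeness was lower for Pf4 with Tmed3 (r = 0.901) and for Cd163 with Serpina3n (r = 0.871).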

How the data were processed

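RNA-Seq of 23 lungs (7 Sham, 7 PM, 5 Sham-OVA and 4 PM-OVA, grouped by their labels) was analysed. Per the methods of the study, the authors trimmed the reads, aligned them to GRCm38 (mm10) with Bowtie2 and quantified them in SeqMonk. The values deposited by the authors are named RPKM, but in every library at least 99.99% of them came out as whole reads (within 0.02) once divided by the value of a single read, whatever the gene length, and so they were handled as RPM and turned back into reads. The strand setting of the counting is not given in the sources used here.

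A filter kept 16795 genes that reached 0.5 RPM in 4 or more libraries. They were fitted as log2(RPM + 0.5) in limma 3.58.1 (R 4.3.3), with its variance trend and BH adjustment, between 2 groups or, for the interaction, in all 4. The study ran DESeq2 on counts. Count tests on those reads (DESeq2 1.42.0, edgeR 4.0.16) were alternatives, as were other pseudocounts, filters, scalings, weights, a replicate block, removal of the length trend and leaving out each library. Replicate numbers were not treated as pairs in the main fit. Same-numbered libraries did not all deviate together, with r from -0.311 to 0.617 between PM-OVA and Sham-OVA. These numbers come from the sample titles and in the OVA groups mostly differ from those in the library names. The check therefore cannot show whether samples were paired. The limma fit was run on counts simulated from the mean Sham profile, with equal spread for all genes and 200 genes changed 4-fold. It recovered 198 and 199 of these 200 in the OVA comparisons, among 14967 genes, with 8 false calls in each. The simulation held few changed genes and no shift in scaling. It therefore does not show how the fit does on the real OVA libraries.

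The 10 genes and the 20 gene lists were chosen with earlier results of these data known. Genes were named by a rule: all 10, the highest and lowest of each list, partners of the 10, and the gene most like each, which for Mrc1 is not reported here. One list, of sex genes, served only as a check of the labels. Coordinates and exonic lengths are those of GENCODE vM21 (GRCm38), and promoter windows those of RefSeq. Plots used matplotlib 3.10.9 (Python 3.11.15). Methylation was not analysed here.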

Additional observations from a re-analysis of the deposited data

Results flagged for a closer look

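In 3 of the 40 combinations of gene and group, 1 library lay far from the others by Dixon's test, a rate near the 1 in 20 that chance gives. Mrc1 was at 35.4 RPM in Sham replicate 7, below the other 6 Sham libraries. Clec10a was at 12.4 RPM in Sham-OVA replicate 3, the shallowest library, below the other 4 of its group. Trem2 was at 11.5 RPM in PM replicate 5, above the other 6 PM libraries.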

How the results depend on the processing

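The count of genes that rose was 9 or 10 in Sham and 8 to 10 in PM offspring under all alternatives but the threshold of the study (3 and 1 with limma, 9 and 8 with DESeq2, 8 and 2 with edgeR, the count tests at this threshold being added after seeing the data), and 0 in PM against Sham and in PM-OVA against Sham-OVA throughout. With array weights 3 genes passed the interaction, Arg1 (-2.45, adjusted p = 0.00897), Pdcd1lg2 (-1.14, adjusted p = 0.0262) and Folr2 (-2.01, adjusted p = 0.00135), in a fit where 27.5% of all genes passed; all other alternatives gave 0. With the replicate block 9 genes rose in each cohort and Cd163 lost its call in Sham offspring (0.73, adjusted p = 0.0724). Leaving out the 4 libraries of low depth or unexpected sex genes was chosen after seeing the data. The cause of these changes was not tested.

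Signs turned for the following values, all of genes that had not passed in that comparison. In PM against Sham, Arg1 was at -0.034 when centred on macrophage genes, -0.156 with DESeq2 and -0.164 with edgeR, Pdcd1lg2 at -0.022 and Mrc1 at -0.0069 when centred, and Ms4a7 ran from -0.172 to 0.025 as libraries were left out. In PM-OVA against Sham-OVA, Cd163 was at -0.00047 with a pseudocount of 0.1, -0.018 with median-of-ratios scaling, -0.584 with array weights, -0.023 with the block and -0.038 without the length trend, and -0.422 to 0.317 as libraries were left out. There Trem2 was at -0.198 with array weights and -0.198 without the 4 libraries, and ran from -0.22 to 0.23 as libraries were left out, and Gpnmb from -0.402 to 0.173. In the interaction, Clec10a was at 0.029 with a pseudocount of 0.1, 0.16 when centred and 0.0195 with the block (-0.22 to 0.0867 leaving out libraries), Cd163 at 0.0923 without the 4 libraries (-0.693 to 0.0459) and Ms4a7 at 0.118 when centred (-0.388 to 0.0597). Among the partners, Cd274 in Sham offspring was at 0.0487 with median-of-ratios scaling, 0.106 with quantile normalisation, 0.0391 without the length trend, 0.149 with DESeq2 and 0.234 with edgeR (-0.485 to 0.0149 leaving out libraries), and in PM offspring at 0.0311 without the 4 libraries. Csf1r in PM offspring was at -0.321 with array weights (-0.185 to 0.328 leaving out libraries).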
